A study of Mus musculus with 12 samples.

Results

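The genes described here encode 10 chaperones and co-chaperones of the HSP70 and HSP90 system. That system folds the glucocorticoid receptor and holds it ready for hormone. The genes are Hsp90aa1, Hsp90ab1, Fkbp4, Ptges3, Stip1, Hspa8, Dnaja1, Bag1, Ahsa1 and Cdc37. They were chosen by gene name, with no measured value in the rule, though with earlier results of these data known. All 10 were found among the 38339 genes of the table. Bone marrow RNA was sequenced from mice that carried transplanted T-lineage acute lymphoblastic leukemia (T-ALL), a malignancy of T-cell precursors for which glucocorticoids are a standard drug. Each of 6 primary murine leukemias was carried by 2 mice, of which 1 received vehicle (VEH) and the other the synthetic glucocorticoid dexamethasone (DEX). The mice of both groups were moribund when treated, were of the background C57BL/6 x 129Sv/Jae F1, and were killed 4 hours after treatment. The dose, the vehicle, the age of the mice and the lesions that drive each leukemia are not given in the sources used here. The leukemias are numbered 1 to 6 below, so the unit of replication was the leukemia (n = 6 pairs). A change with treatment is therefore a difference between 2 mice that carried the same leukemia.

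The unliganded glucocorticoid receptor cannot bind hormone until chaperones have opened its ligand pocket. HSP70 proteins and their J-domain partners take the receptor first, the adaptor protein encoded by Stip1 passes it to an HSP90 dimer, and the co-chaperone encoded by Ptges3 stabilises the mature complex. Immunophilins then bind the same complex: the Fkbp4 product favours hormone binding and nuclear transport, and the Fkbp5 product, itself induced by glucocorticoids, restrains them. Several of these chaperones are also made in larger amounts after heat or other protein damage, when heat shock factor 1 binds short inverted repeats near their genes.

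Promoter sequence is shown for Fkbp4, Dnaja1 and Cdc37, the genes whose windows hold such a repeat, and for Bag1, whose window holds none. Of the genes with a repeat, Fkbp4 and Dnaja1 were called lower after DEX, as given below, and Cdc37 was not. Of those with a window and no repeat, Ahsa1 was called lower, and Ptges3, Stip1 and Bag1 were not. Hsp90aa1, also called lower, has no window, and neither have Hsp90ab1 and Hspa8. A link between repeat and call was not tested. RefSeq windows on GRCm38.p6, running from 250 bases before to 50 bases after the start of transcription, were present for 7 of the 10 genes, and Dnaja1 has 3 starts. The bases from -250 to -51 relative to the start are printed 5′ to 3′ on the gene's own strand, with the match in capitals. The Fkbp4 stretch is chr6:128438707-128438906 on the minus strand. The Dnaja1 stretch is chr4:40722218-40722417 on the plus strand, before the first of its starts, where GENCODE also places an exon of a processed Dnaja1 transcript. The Cdc37 stretch is chr9:21149985-21150184 and the Bag1 stretch is chr4:40948345-40948544, both on the minus strand.
Fkbp4: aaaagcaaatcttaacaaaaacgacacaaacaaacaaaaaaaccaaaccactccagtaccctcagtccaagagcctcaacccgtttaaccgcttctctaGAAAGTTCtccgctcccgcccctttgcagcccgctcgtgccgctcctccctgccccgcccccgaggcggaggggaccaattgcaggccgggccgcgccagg
Dnaja1: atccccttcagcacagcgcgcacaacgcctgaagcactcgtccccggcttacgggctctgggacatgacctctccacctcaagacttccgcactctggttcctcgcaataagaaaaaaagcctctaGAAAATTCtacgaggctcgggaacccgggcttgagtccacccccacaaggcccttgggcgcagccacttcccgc
Cdc37: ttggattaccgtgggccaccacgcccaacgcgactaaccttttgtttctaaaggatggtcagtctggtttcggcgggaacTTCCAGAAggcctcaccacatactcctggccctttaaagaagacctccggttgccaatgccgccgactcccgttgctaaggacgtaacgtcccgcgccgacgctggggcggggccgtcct
Bag1: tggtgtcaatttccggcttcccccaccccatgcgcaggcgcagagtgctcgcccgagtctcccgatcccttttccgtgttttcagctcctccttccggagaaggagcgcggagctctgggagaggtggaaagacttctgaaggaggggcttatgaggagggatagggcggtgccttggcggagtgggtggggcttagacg

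The letters searched were GAANNTTC and TTCNNGAA, each of which reads the same on both strands and makes up 2 facing units of a heat shock element. Fkbp4 held GAAAGTTC at -151 to -144. Dnaja1 held GAAAATTC at -124 to -117 before its first start. Cdc37, the kinase-directed co-chaperone, held TTCCAGAA at -170 to -163. Ptges3, Stip1, Bag1 and Ahsa1 held neither form. The Ahsa1 window (chr12:87266478-87266777, plus strand) lies almost wholly within the GENCODE gene, which starts at 87266479. Bases further upstream of that start were not searched. One or the other form was present in 17% of the 27025 genes with a window (4587 genes) and in 15.1% of all windows. The longer element with a further facing unit, found in 0.603% of windows, was in none of the windows of these genes, and neither was the palindromic glucocorticoid response element, found in 0.475% of windows. The E-box CACGTG, present in 7.15% of windows, was likewise in none of them. CCAAT, read on both strands, was present in 37.4% of windows and in those of Fkbp4, Stip1, Dnaja1 (its later starts) and Cdc37, with 4 copies in Stip1. These matches describe letters only, and binding was not measured.

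All values are FPKM, fragment counts scaled for transcript length and library size, which can be set side by side between genes. The FPKM of a library summed to between 1466471 and 2019058, and 11778 to 12970 genes reached an FPKM of 1. The spacing of the lowest values gave an estimated 11600000 to 36600000 fragments in 11 libraries, with no clear estimate for the VEH library of leukemia 2. Of the genes that check receptor and drug, Tsc22d3, a direct glucocorticoid target, rose by 1.38 on the log2 scale (SE 0.19, limma adjusted p = 0.00355), and Nr3c1, which encodes the receptor, rose by 0.69 (SE 0.08, adjusted p = 0.00163), both in 6 of 6 leukemias. Per1, a clock gene and glucocorticoid target, was higher in 5 of 6 but missed the threshold (0.87, SE 0.40, adjusted p = 0.176), and its difference was 3.39 in leukemia 6 and 0.37 on average without it. T-lineage markers (12 genes) summed to 1480 to 2540 FPKM in the VEH libraries and 1440 to 2320 in the DEX libraries. Granulocyte markers (10 genes) summed to 2320 to 9060 and 1530 to 5440, so every library held RNA of normal marrow cells. Erythroid markers (8 genes) spanned 8.53 to 1180 and 13.8 to 150, monocyte and macrophage markers (6 genes) 108 to 610 and 44.2 to 369, and B-lineage markers (7 genes) 1.18 to 51.3 and 1.12 to 8.34. No marker of these lists was at 0 in a whole group. In bulk RNA, fewer cells of a type and less RNA per cell cannot be told apart.

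**Figure D1:**
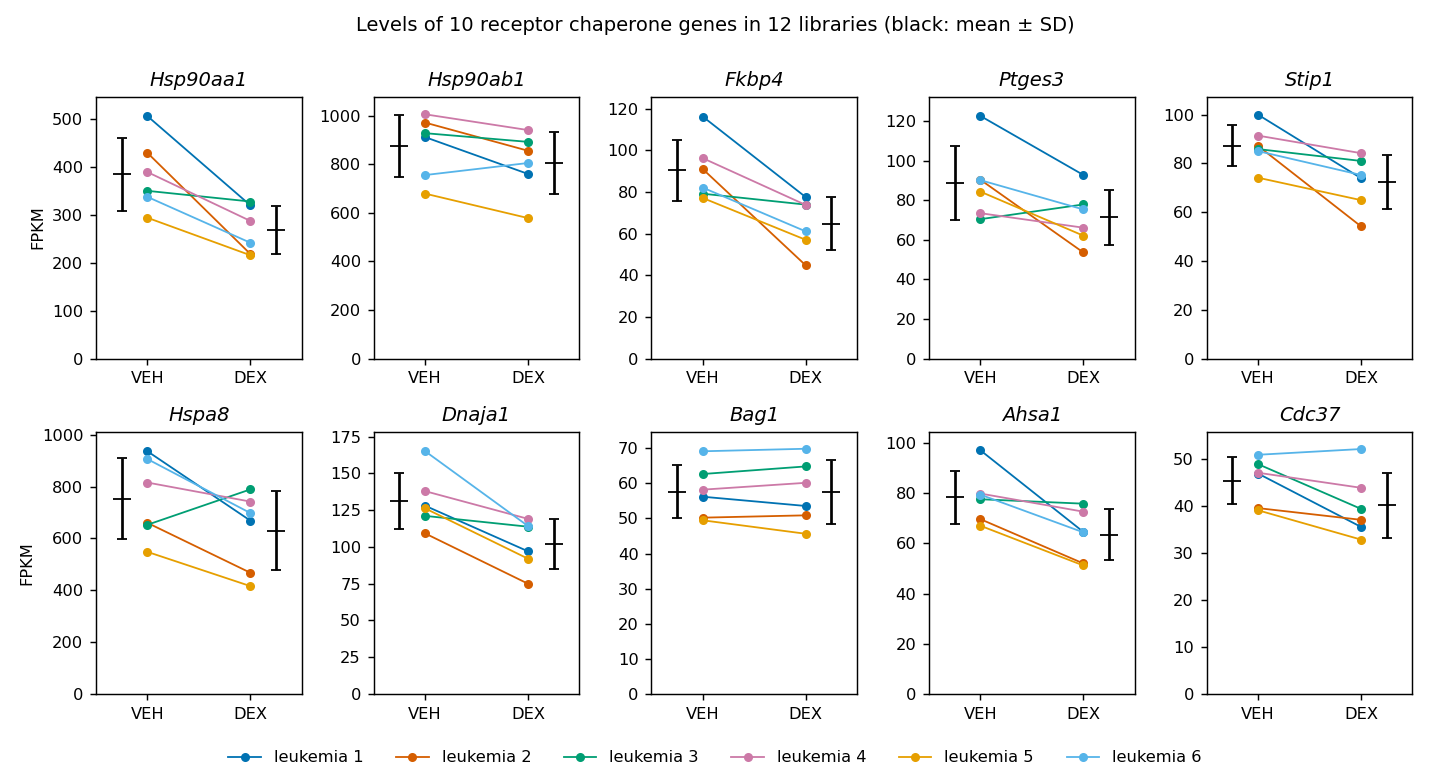
FPKM of the 10 genes in each VEH and DEX library, with the libraries of a leukemia joined by a line and the group mean ± SD in black (n = 6 per group). Hsp90aa1, Fkbp4, Stip1, Dnaja1 and Ahsa1 slope down in all 6 leukemias, and Bag1 lies flat at about 57.7 FPKM in VEH and 57.5 FPKM in DEX.

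All 10 genes were well expressed, and their levels spanned a wide range. Hsp90ab1, the constitutive cytosolic HSP90, had the highest mean level in VEH libraries at 876 ± 129 FPKM (SD, n = 6). Hspa8, the constitutive cytosolic HSP70, followed at 753 ± 156 FPKM, and Hsp90aa1, the stress-responsive cytosolic HSP90, at 384 ± 75.3 FPKM. These 3 chaperones made up 33.9%, 28.9% and 14.7% of the summed FPKM of the 10 genes. The co-chaperones were much lower: Dnaja1 stood at 131 ± 19.1 FPKM, and the lowest, Cdc37, at 45.4 ± 4.93 FPKM.

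Not every neighbour in this order was separated. Hsp90ab1 exceeded Hspa8 in 4 of 6 VEH libraries, Fkbp4 exceeded Ptges3 in 3 of 6, and Ptges3 exceeded Stip1 in 4 of 6, so these neighbours did not differ beyond their spread. The other neighbours kept their order in 6 of 6 VEH libraries. In DEX libraries Fkbp4 moved from the fifth to the seventh place, below Stip1 and Ptges3, with 64.7 ± 12.7 FPKM. It exceeded Ahsa1 in 3 of 6 of them. The share of Hsp90aa1 in the summed FPKM was 12.3% in DEX libraries, and that of Hsp90ab1 was 37.2%.

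After DEX, Hsp90aa1, Fkbp4, Dnaja1 and Ahsa1 fell, and none of the 10 genes rose. The test was a limma fit of log2(FPKM + 1) with the leukemia as a block, adjusted over all 12358 genes tested, and all 10 genes entered it. Of all tested genes, 9.28% were called lower (1147) and 4.27% higher (528). Of these 10 genes, 4 were called lower, 0 higher and 6 neither. Their median difference was -0.29 on the log2 scale, against -0.05 for all tested genes. Rescaling each library to TPM put the median of all genes at -0.16, with 1844 genes lower and 268 higher, and called 6 of the 10 genes lower. Median-of-ratios scaling put that median at 0.00, with 718 lower and 683 higher, and called 3 lower, without Ahsa1. With 1 mouse per leukemia and treatment, differences between the mice of a leukemia and the effect of treatment cannot be told apart within a pair.

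Direction was more uniform than the calls. 5 of the 10 genes (the 4 called and Stip1) were lower in DEX in all 6 leukemias, where 13.7% of all tested genes were (1689). Hsp90ab1, Ptges3, Hspa8 and Cdc37 were lower in 5 of 6, and Bag1 in 2 of 6.

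**Figure D2:**
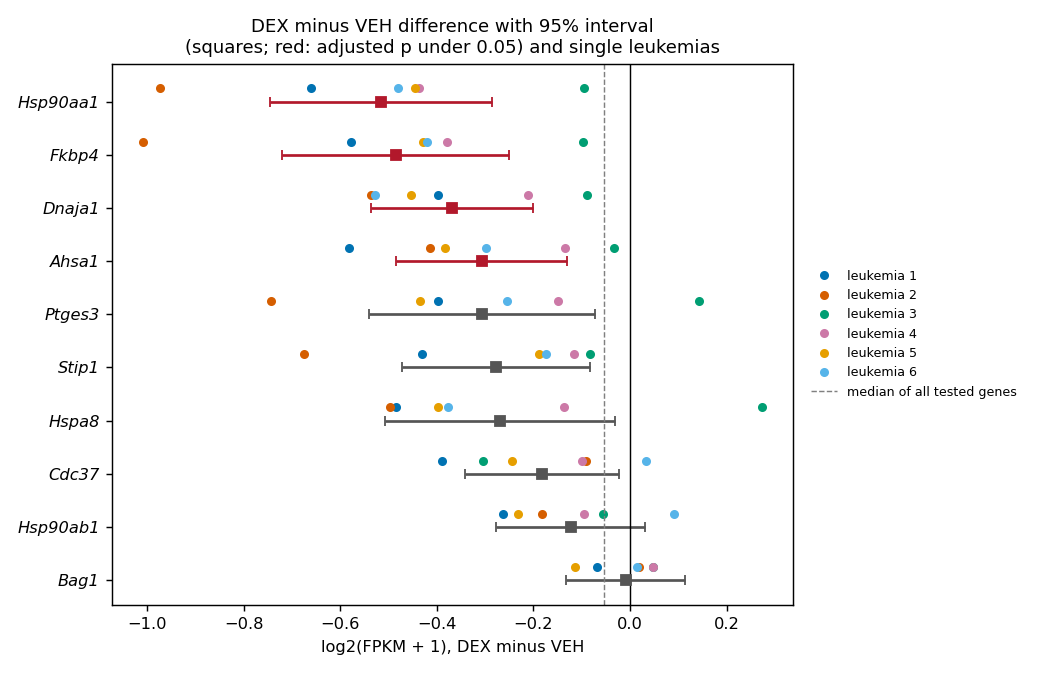
DEX minus VEH differences of the 10 genes on the log2(FPKM + 1) scale, as the fitted value with its 95% interval (squares, red where the adjusted p was under 0.05) and in single leukemias (points). The 4 red genes run from -0.52 for Hsp90aa1 to -0.31 for Ahsa1, the dashed line marks the median of all tested genes at -0.05, and leukemia 3 is the highest point for 8 of the 10 genes.

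The HSP90 genes differed in response: Hsp90aa1 fell the most of the 10, and Hsp90ab1 did not pass. Hsp90aa1 (chr12:110690605-110702728, GRCm38) ranged from 293 to 505 FPKM in VEH libraries, with a median of 369. In DEX libraries it ranged from 215 to 327 FPKM, with a median of 264. The ranges overlapped, but each DEX library lay below its VEH partner, least in leukemia 3 (349 against 327) and most in leukemia 2 (429 against 218). Hsp90aa1 fell by 0.52 on the log2 scale (SE 0.10, limma adjusted p = 0.0140).

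Hsp90ab1 (chr17:45567775-45573271) ranged from 680 to 1007 FPKM in VEH libraries, with a median of 921. In DEX libraries it ranged from 579 to 942 FPKM, with a median of 831. The groups overlapped over most of their range, and leukemia 6 was higher after DEX (756 against 806). The difference was -0.12 (SE 0.07, 95% interval -0.28 to 0.03, limma adjusted p = 0.261) and did not pass.

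The difference between both cytosolic HSP90 genes was tested itself. The log2 difference of Hsp90aa1 minus that of Hsp90ab1 was -0.39 ± 0.26 (SD, n = 6), below 0 in 6 of 6 leukemias (exact two-sided sign-flip permutation test p = 0.03125, the smallest that 6 pairs allow, and 0.0469 adjusted over the 3 gene-to-gene contrasts). The ratio of Hsp90ab1 to Hsp90aa1 FPKM was 2.31 ± 0.30 in VEH and 3.06 ± 0.56 in DEX libraries, higher in DEX in all 6. It moved least in leukemia 3 (2.66 to 2.73) and most in leukemia 2 (2.27 to 3.93).

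Among the proteins that act first on the receptor, Dnaja1, the J-domain protein that loads clients onto HSP70, was lower in every pair. Dnaja1 (chr4:40722150-40737149) ranged from 109 to 165 FPKM in VEH libraries (median 127.1) and from 74.9 to 119 FPKM in DEX libraries (median 105). The ranges overlapped, with leukemia 2 the lowest in both groups and leukemia 6 the highest in VEH. It fell by 0.37 on the log2 scale (SE 0.07, limma adjusted p = 0.0149). The gene overlaps Smu1, a splicing factor gene on the opposite strand, which stood at 46.1 to 57.4 FPKM with a difference of -0.04 (adjusted p = 0.716). It also has 3 pseudogene copies of at least 95% identity, listed at 3.03% to 11% of its FPKM, and with them added the difference was again -0.37 (adjusted p = 0.0150).

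Hspa8 (chr9:40800984-40810087), the HSP70 that Dnaja1 serves, ranged from 548 to 936 FPKM in VEH libraries (median 738). In DEX libraries it ranged from 416 to 789 FPKM (median 683). The groups overlapped widely, and leukemia 3 was higher after DEX (653 against 789), while the other 5 were lower. The difference was -0.27 (SE 0.11, limma adjusted p = 0.123) and did not pass. Without leukemia 3 it passed (adjusted p = 0.0230).

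Bag1 (chr4:40936398-40948294), a nucleotide exchange factor that releases clients from HSP70, had nearly the same level in both groups. It ranged from 49.5 to 69.2 FPKM in VEH libraries (median 57.2) and from 45.7 to 69.9 FPKM in DEX libraries (median 56.9). The groups overlapped almost fully, and 4 leukemias were slightly higher after DEX. The difference was -0.01 (SE 0.05, 95% interval -0.13 to 0.11, limma adjusted p = 0.927), and its sign turned under median-of-ratios scaling (0.05) and quantile normalization (0.01). Bag1 minus Hspa8 averaged 0.26 ± 0.26 on the log2 scale (SD, n = 6) and was above 0 in 5 of 6 leukemias (exact sign-flip permutation p = 0.0938, also after adjustment over the 3 contrasts).

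Stip1 (chr19:7020702-7039967), the adaptor between HSP70 and HSP90, ranged from 74.1 to 99.9 FPKM in VEH libraries (median 86.5) and from 54.2 to 84.2 FPKM in DEX libraries (median 74.6). Each DEX library lay below its partner, and the groups overlapped. The difference was -0.28 (SE 0.09, limma adjusted p = 0.0632), which missed the threshold, and it passed after rescaling to TPM (adjusted p = 0.0399).

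The immunophilin Fkbp4 (chr6:128429735-128438677) changed almost as much as Hsp90aa1. It ranged from 77.1 to 116.2 FPKM in VEH libraries (median 86.5). In DEX libraries it ranged from 44.8 to 77.5 FPKM (median 67.4). The groups met only at their edges, where the highest DEX library (leukemia 1) lay just above the lowest VEH library (leukemia 5), and leukemia 3 moved least (79.1 to 73.9). Fkbp4 fell by 0.49 on the log2 scale (SE 0.10, limma adjusted p = 0.0187). The call was lost without leukemia 1 (-0.47, adjusted p = 0.0607), without leukemia 5 (-0.50, adjusted p = 0.0562) and with a term for granulocyte markers in the fit (-0.33, adjusted p = 0.0721).

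Its counterpart Fkbp5 moved the other way. Fkbp5 ranged from 244 to 359 FPKM in VEH libraries and from 502 to 714 FPKM in DEX libraries. The groups did not overlap. It rose by 1.06 on the log2 scale (SE 0.12, limma adjusted p = 0.00179). Fkbp5 minus Fkbp4 averaged 1.54 ± 0.43 on that scale (SD, n = 6) and was above 0 in 6 of 6 leukemias (exact sign-flip permutation p = 0.03125, the smallest possible, and 0.0469 adjusted). The ratio of Fkbp5 to Fkbp4 FPKM was 3.48 ± 0.88 in VEH and 10.01 ± 1.78 in DEX libraries.

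**Figure D3:**
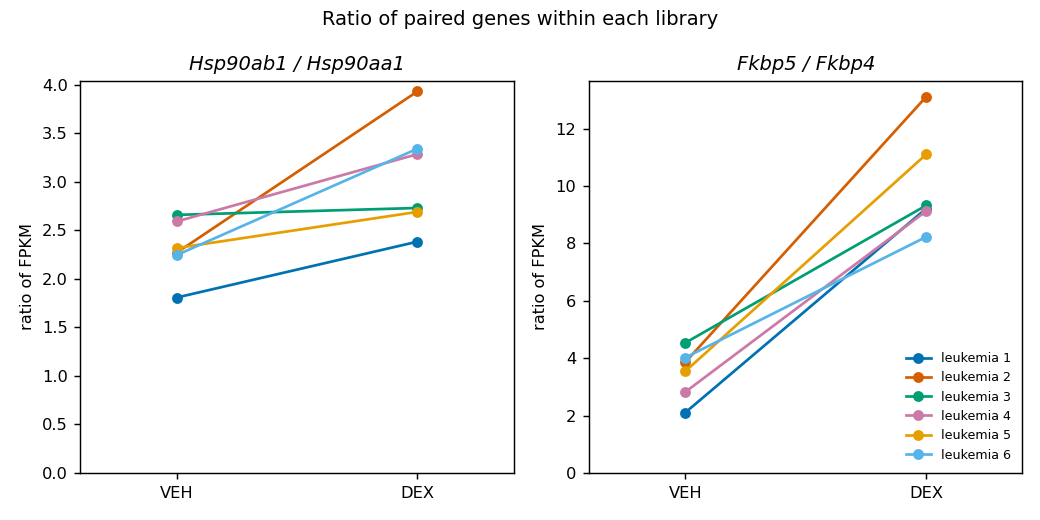
Ratio of FPKM within each library for Hsp90ab1 over Hsp90aa1 and for Fkbp5 over Fkbp4, with the libraries of a leukemia joined by a line. Both ratios rise in all 6 leukemias, to means of 3.06 and 10.01 in DEX libraries, and the flattest line on the left is leukemia 3 (2.66 to 2.73).

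Ptges3 (chr10:128058954-128077272), which clamps the mature HSP90 complex, ranged from 70.4 to 123 FPKM in VEH libraries (median 87.3) and from 53.6 to 92.8 FPKM in DEX libraries (median 70.7). The groups overlapped, and leukemia 3 was higher after DEX (70.4 against 77.9). The difference was -0.31 (SE 0.10, limma adjusted p = 0.0824) and did not pass, but did without leukemia 3 (adjusted p = 0.0321). A processed pseudogene of at least 95% identity, Ptges3-ps, was listed at 67.2% to 105% of the FPKM of Ptges3, so reads may have been divided between them. Its exon length is 480 bp against 2217 bp for Ptges3, so its share of fragments is smaller than its share of FPKM. Ptges3-ps itself differed by -0.23 (adjusted p = 0.224), and both summed, weighted by length, by -0.30 (adjusted p = 0.0916).

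Ahsa1 (chr12:87266479-87273998) encodes the activator of the HSP90 ATPase. It ranged from 67.1 to 97.1 FPKM in VEH libraries (median 78.5) and from 51.2 to 75.9 FPKM in DEX libraries (median 64.5). Every DEX library lay below its partner, by the least in leukemia 3 (77.6 to 75.9), and the groups overlapped. It fell by 0.31 on the log2 scale (SE 0.08, limma adjusted p = 0.0341). This was the least stable of the 4 calls: it was lost without leukemia 1, 2, 4, 5 or 6, with differences of -0.34 to -0.25 and adjusted p-values of 0.0559 to 0.104, and with the granulocyte term (-0.22, adjusted p = 0.147).

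Cdc37 (chr9:21133222-21149982), which brings protein kinases to HSP90, ranged from 39.0 to 50.8 FPKM in VEH libraries (median 46.9) and from 32.8 to 52.1 FPKM in DEX libraries (median 38.2). The groups overlapped, and leukemia 6 was the highest in both, with 50.8 and 52.1 FPKM. The difference was -0.18 (SE 0.07, limma adjusted p = 0.119) and did not pass, but did after rescaling to TPM (adjusted p = 0.0249).

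Hsp90aa1 kept its call with any 1 leukemia left out, with differences of -0.60 to -0.42 and limma adjusted p-values of 0.0103 to 0.0497. Dnaja1 lost its call only without leukemia 5 (-0.35, adjusted p = 0.0563). Without leukemia 5, 1 of the 10 genes was called lower, and 420 of all genes. Without leukemia 1, 2 of the 10 were called lower, and 486 of all genes. Without leukemia 3, 6 of the 10 were called lower, and 994 of all genes.

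The leukemias differed in how far the 10 genes moved. The median of the 10 differences was -0.41, -0.52, -0.07, -0.14, -0.39 and -0.28 on the log2 scale in leukemias 1 to 6. The median of all tested genes in the same leukemias was -0.03, -0.12, -0.02, -0.01, -0.03 and -0.09. In leukemia 2, Fkbp4 (-1.01) and Hsp90aa1 (-0.97) had the largest differences of any gene and leukemia among the 10. All 10 genes were lower after DEX in leukemias 1 and 5, 9 in leukemias 2 and 4, and 7 in leukemias 3 and 6. Of all tested genes, 54.7%, 60.9%, 53.2%, 51.2%, 55.2% and 59.9% were lower in leukemias 1 to 6.

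In leukemia 3, Hspa8 (0.27), Ptges3 (0.14) and Bag1 (0.05) were higher in DEX than in VEH. By Dixon's test, applied to the levels in each group and to the differences of the 10 genes, 0 of 30 sets held an outlying leukemia. That test reads 1 gene at a time, so it cannot see a shift of 1 leukemia that several genes share. The receptor and drug checks rose in leukemia 3, with Tsc22d3 at 1.17, Fkbp5 at 0.94, Nr3c1 at 0.87 and Per1 at 0.28. Over the 6 leukemias these genes ran from 0.47 to 2.05, 0.61 to 1.54, 0.32 to 0.87 and -0.13 to 3.39. Markers of granulocytes moved along with the 10 genes in part. Their mean log2 difference was -0.64, -1.36, 0.59, 0.07, -0.38 and -1.33 in leukemias 1 to 6, so leukemia 3 had the highest value of that list and leukemia 2 the lowest. T-lineage markers differed on average by -0.08, 0.00, -0.24, -0.05, -0.08 and -0.19, and erythroid markers by -1.43, -2.74, 0.10, -0.22, 0.32 and 0.37. Of the 12 T-lineage markers, 4 were called lower after DEX (9.28% of all tested genes were), 1 higher (4.27%) and 7 neither. Their fitted differences ran from -0.82 to 0.27, so the T-lineage mean joins changes of both signs. The part of T-lineage RNA in the differences of the 10 genes was not tested.

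With the granulocyte mean as a further term in the fit, Hsp90aa1 (-0.36, limma adjusted p = 0.0494) and Dnaja1 (-0.26, adjusted p = 0.0430) still passed. Fkbp4 (-0.33, adjusted p = 0.0721) and Ahsa1 (-0.22, adjusted p = 0.147) did not. Within leukemias 3 to 6, without the pairs that held most erythroid and B-lineage RNA, the median difference of the 10 genes was -0.17 and 0 of them passed, while 129 genes in all were called lower.

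**Figure D4:**
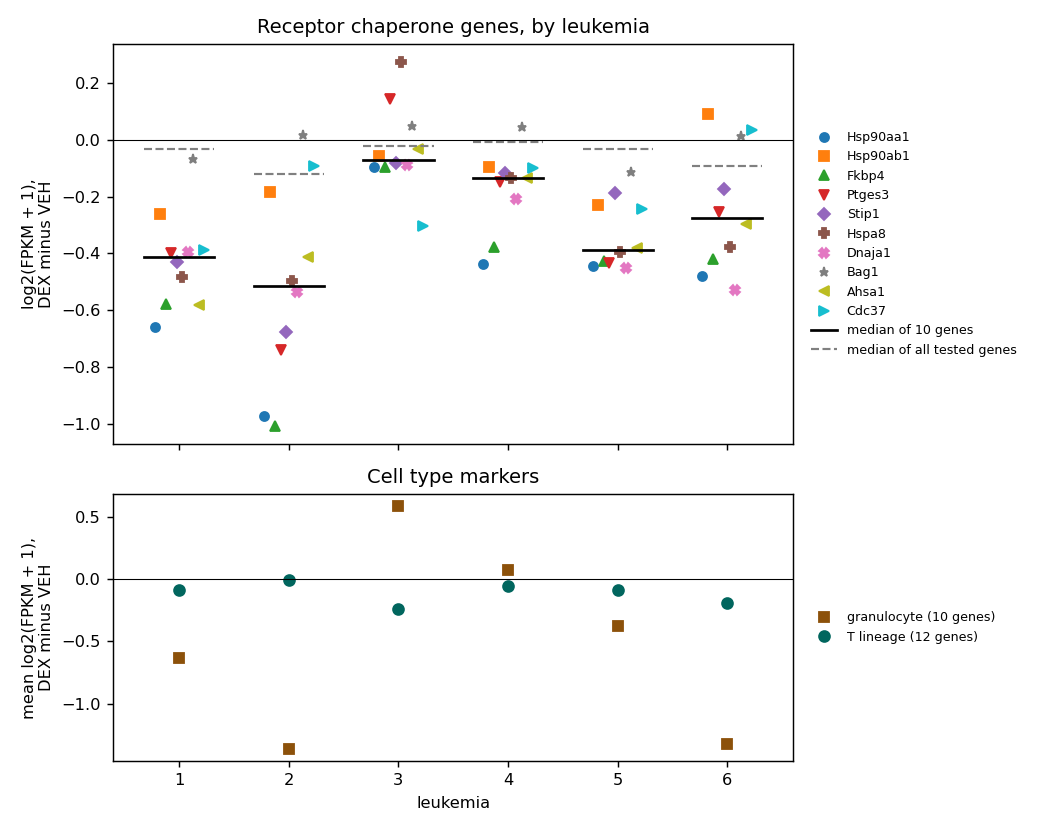
Upper panel, DEX minus VEH difference of each of the 10 genes by leukemia on the log2(FPKM + 1) scale, with the median of the 10 (black) and of all tested genes (dashed). Lower panel, mean difference of granulocyte and T-lineage markers on the same scale. The median of the 10 genes lies lowest in leukemia 2 (-0.52) and highest in leukemia 3 (-0.07), where granulocyte markers differed by -1.36 and 0.59.

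Between leukemias, whatever the treatment, the 10 genes differed about as often as all tested genes. In an F test of the block for leukemia, 5 of the 10 genes passed, against 51.1% of all tested genes (6321). They were Bag1 (limma adjusted p = 0.00934), Hsp90ab1 (0.0158), Hspa8 (0.0275), Dnaja1 (0.0343) and Cdc37 (0.0494). Leukemia 5 had the lowest Hsp90ab1, Hspa8, Bag1 and Cdc37 in both groups. Leukemia 6 had the highest Bag1 and Cdc37 in both. Hsp90aa1 (0.0844), Fkbp4 (0.123), Ptges3 (0.0860), Stip1 (0.203) and Ahsa1 (0.0712) did not pass.

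As a description, over the 12 libraries, which share leukemias and treatment, Pearson's r between log2 levels of the 45 pairs among the 10 genes ran from 0.13 to 0.95, with a median of 0.67. The closest pair was Hsp90aa1 and Fkbp4 at 0.95, and the lowest was Hsp90ab1 and Ptges3 at 0.13. Outside the 10 genes, the levels most like those of Hsp90aa1 were Nudcd1 (0.98), Nasp, a histone chaperone (0.96), and Chek1, a cell-cycle checkpoint kinase (0.94). Fkbp4 was most like Srpk1 (0.96), 2700038G22Rik (0.94) and Nasp (0.94). Ptges3 was most like Adpgk (0.96), Hspa4, an HSP70 exchange factor (0.95), and Ipo7, a nuclear import receptor (0.95). Dnaja1 was most like Polr1e, a subunit of RNA polymerase I (0.95), Ece2 (0.94) and Chtf8 (0.94). Ahsa1 was most like Gusb (0.95), Nop2, a nucleolar RNA methyltransferase (0.94), and Nop10 (0.93).

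The other 5 genes had likenesses of the same order. Hspa8 was most like Gm26825 (0.98), Rps27l (0.96) and Atp5f1 (0.94). Hsp90ab1 was most like L3mbtl2, Letmd1 and Atxn10 (each 0.92). Stip1 was most like Utp11, Taf6 and Higd1a (each 0.93). Bag1 was most like Rpl36al, Slc25a45 and Psmc5 (each 0.94). Cdc37 was most like Dph1 (0.96), Gnl1 (0.94) and Trappc4 (0.94).

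The rest of the chaperone network was read through lists by function. Of 20 other HSP90 co-chaperones and immunophilins, 19 were tested, 6 fell, 1 rose (Fkbp5) and 12 did not pass, with a median of -0.16. Ppid, a cyclophilin of the receptor complex, fell from 84.3 ± 10.7 to 58.4 ± 9.68 FPKM (-0.53, SE 0.09, adjusted p = 0.00838). St13, which stabilises HSP70 bound to clients, fell from 122 ± 29.4 to 88.0 ± 23.2 FPKM (-0.48, SE 0.08, adjusted p = 0.00706), also in all 6 leukemias. Flcn, a tumour suppressor that is bound by HSP90 (-0.28), Cacybp (-0.40) and Ppp5c, a phosphatase of the receptor complex (-0.31), were also among the 6.

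Of 13 other cytosolic HSP70 proteins and exchange factors, 11 were tested, and 3 fell, 0 rose and 8 did not pass (median -0.17). Hsph1, a large HSP70-related exchange factor, fell from 20.6 ± 9.12 to 8.95 ± 4.01 FPKM (-1.08, SE 0.27, adjusted p = 0.0320). It was lower in 5 of 6 leukemias, the exception being leukemia 3 (7.37 against 8.44). Bag2, an inhibitor of client ubiquitination (-0.51, adjusted p = 0.0259), and Hspa4 (-0.28, adjusted p = 0.0408) were lower in all 6. The stress-induced HSP70 genes Hspa1a and Hspa1b were too low to be tested. Their levels were 0.387 ± 0.639 and 1.24 ± 1.14 FPKM in VEH libraries, and 0.080 ± 0.024 and 0.217 ± 0.164 FPKM in DEX libraries. In VEH libraries Hspa1a ran from 0.01 to 1.67 FPKM and Hspa1b from 0.18 to 2.88 FPKM, both highest in leukemia 2. Hspa1a was higher in DEX than in VEH in leukemias 3, 5 and 6, and Hspa1b in leukemia 3.

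Of 11 other cytosolic J-domain proteins, 10 were tested, and 2 fell, 0 rose and 8 did not pass (median -0.01). These were Dnajc21, a ribosome biogenesis factor (-0.53, adjusted p = 0.00202), and Dnajb2 (-0.43, adjusted p = 0.0258). Dnajb1, the stress-inducible J-domain protein of the cytosol, stood at 34.3 ± 10.7 and 34.6 ± 10.05 FPKM (0.02).

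Of 7 heat shock factors and small or mitochondrial heat shock proteins, 4 were tested and 3 fell (median -0.41). Hspd1, the mitochondrial chaperonin, fell from 161 ± 48.5 to 99.6 ± 32.2 FPKM (-0.71, SE 0.11, adjusted p = 0.00483). Hsf1, the main heat shock transcription factor, fell from 17.6 ± 4.02 to 13.1 ± 2.72 FPKM (-0.40, SE 0.06, adjusted p = 0.00532). Hsf2 fell by 0.42 (adjusted p = 0.0307), and all 3 were lower in 6 of 6 leukemias. Hspe1, the partner of Hspd1, differed by -0.32 (adjusted p = 0.0834).

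Of the 5 organelle HSP90 and HSP70 genes, 1 fell (median -0.22), namely Hspa9 of mitochondria (-0.47, adjusted p = 0.00799). Of the 8 subunits of the TRiC chaperonin, which folds actin and tubulin, 3 fell: Cct8 (-0.30), Cct7 (-0.30) and Cct3 (-0.29), with a median of -0.23 for all 8. Of the 6 prefoldin subunits, which deliver clients to TRiC, 1 fell, Pfdn4 (-0.41, adjusted p = 0.0258), and the median was 0.03. The cell-type values given above apply to these lists too, and their part in these differences was not tested.

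**Figure D5:**
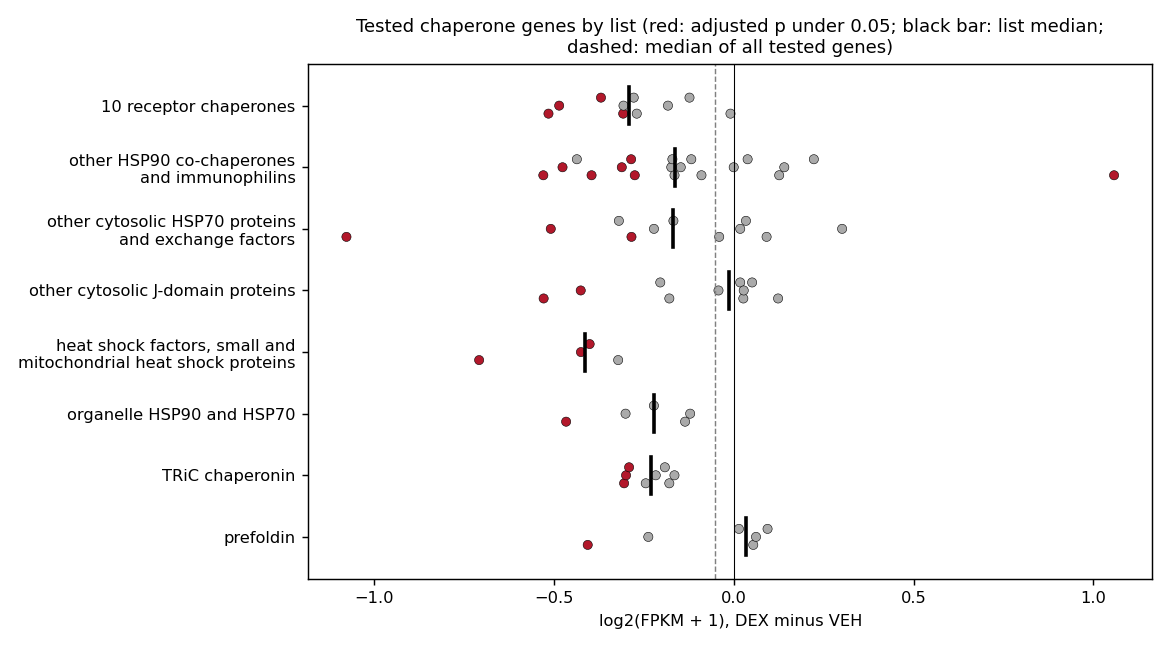
DEX minus VEH difference on the log2(FPKM + 1) scale of each tested gene in 8 chaperone lists (red, adjusted p under 0.05), with list medians as black bars and the median of all tested genes dashed. The single red point to the right of 0 is Fkbp5 (1.06), the point farthest to the left is Hsph1 (-1.08), and the medians run from -0.41 to 0.03.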

How the data were processed

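The authors deposited FPKM, on a linear scale, for 38339 genes in 12 libraries, prepared from total RNA with strand kept and read as 100 bp pairs, per the labels' protocols. Per the submitters' processing notes, the build was mm10, and the tools, listed with no role, were edgeR, RSEM and Bowtie2 (version 2). The annotation and any filters are not given in the sources used here. Gene positions came from GENCODE M21 (GRCm38), matched by identifier for 37693 genes. Without counts in the table, no count test was run. Depth was estimated from sparse genes of 400 to 700 bp, taking 1 fragment of 150 bp as the smallest value.

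Values were analysed as log2(FPKM + 1), a scale that understates the change of low genes. The 12358 genes that reached an FPKM of 1 in 6 or more of the 12 libraries were fitted in limma 3.58.1 (R 4.3.3, lmFit, eBayes with trend) with leukemia as a block, two-sided, with Benjamini-Hochberg adjustment over all of them and a threshold of 0.05. Differences between leukemias were read from an F test of the block. Pairs came from the leukemia code shared by titles. Libraries of 1 leukemia deviated together (r of 0.55 to 0.82), and those of different leukemias at most at 0.21. Gene-to-gene contrasts used all sign flips of 6 pairs. Copies were transcripts matching a member at 95% identity or more over at least 200 bp. Other scalings, filters, pseudocounts, left-out pairs and a granulocyte term were tried.

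The members and lists were chosen with earlier results of these data known. Named genes were the 10 members, the receptor and drug checks, up to 4 called genes per list with the smallest p, the 3 genes most like each member, and overlapping genes. Cacybp, Ppp5c, Hspa1a, Hspa1b, Dnajb1 and Hspe1 were named after their values were seen. 1 called gene of the lists is not reported here by name.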

Additional observations from a re-analysis of the deposited data

How the results depend on the processing

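Of the 10 genes, 0 were called higher under any setting tried. The count called lower (4, with 1147 of all genes) was 0 without a filter, when 27663 genes were tested and 370 of them called lower. It was 0 in the fit with no replicate block, which ignores the pairing and called 46 of all genes lower, and 2 with the granulocyte term (595 of all genes). It was 0 in leukemias 1, 3 and 4 (525 of all genes) and 2 in leukemias 2, 5 and 6 (275 of all genes), whose sample descriptions differ in form. It was 0 in leukemias 3 to 6 (129 of all genes), a setting added after the data were seen. With 1 leukemia left out it was 1 (without leukemia 5, 420 of all genes) to 6 (without leukemia 3, 994 of all genes). Calls over all genes were below 1147 in each of these settings, also without leukemia 3, where the count of the 10 genes was higher. Hsp90aa1 kept its call in 17 of 21 settings, Dnaja1 in 17 of 22, Fkbp4 in 13 of 21 and Ahsa1 in 8 of 21. The 4 genes had negative differences in all of them.

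The count of genes that differed between leukemias (5) was 2 without a filter and 1 after rescaling to TPM. It was 3 with quantile normalization, with protein-coding sum scaling and with eBayes without trend. It was 1 in leukemias 1, 3 and 4, 3 in leukemias 3 to 6, and 2 to 6 with 1 leukemia left out. In the main fit, 51.1% of all tested genes passed the F test of the block for leukemia (6321). For the other settings that share is not given here. Whether the counts above moved with those of all tested genes was therefore not tested. The difference of Bag1, never called, turned to 0.053 with median-of-ratios scaling, 0.012 with quantile normalization and 0.0089 in leukemias 1, 3 and 4, and ran from -0.020 (without leukemia 3) to 0.012 (without leukemia 5) with 1 left out, turning also without leukemia 1 (0.0028).

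With fewer than 6 pairs the sign-flip test cannot reach 0.05. Hsp90aa1 minus Hsp90ab1 was -0.26, -0.53 and -0.29 in leukemias 1, 3 and 4, in 2, 5 and 6, and in 3 to 6, and -0.46 to -0.31 with 1 left out. Fkbp5 minus Fkbp4 was 1.61, 1.47 and 1.35 in the same sets, and 1.43 to 1.65 with 1 left out. The causes of the lost calls were not tested.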
